A study of Homo sapiens with 12 samples.

Results

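The nuclear-encoded subunits of the mitochondrial respiratory chain and of ATP synthase were examined in a human T-cell acute lymphoblastic leukaemia line treated with a glucocorticoid. Members were the genes with a probe set of a single platform gene symbol that starts with NDUFA, NDUFB, NDUFC, NDUFS, NDUFV, UQCR, COX4 to COX8 or ATP5, or is an SDH subunit, CYC1 or CYCS. Assembly factors, pseudogenes, antisense and non-coding genes were left out. The rule found 79 genes of the 19775 with such a probe set, on 155 of the 54675 probe sets of the array. They were 33 genes of complex I, 3 of complex II, 7 of complex III, cytochrome c (1 gene), 17 of complex IV and 18 of ATP synthase. Where a gene had several, the probe set with the strongest average signal stood for it. Some subunit genes, among them SDHB and NDUFA4L2, had no probe set that met the rule and were not analysed here.

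CCRF-CEM-C7H2, a glucocorticoid-sensitive leukaemia line, was given 100 nM dexamethasone, a synthetic glucocorticoid, for 6 h or 24 h, or 0.1% ethanol, the carrier, for the same times. Each of these 4 groups held 3 HG-U133 Plus 2.0 arrays, 1 per independent experiment, and the line is 1 subclone. Values are log2 expression per probe set, so a difference of 1 is a doubling of signal, and levels of different probe sets are not comparable.

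In the respiratory chain, complexes I and II pass electrons from NADH and succinate to ubiquinone, complex III passes them to cytochrome c, and complex IV passes them to oxygen. Complexes I, III and IV pump protons as they do so, and ATP synthase lets the protons back through its c-ring to make ATP. Nearly all subunits are encoded in the nucleus, while a small core set is encoded in mitochondrial DNA. Leukaemia cells use the chain for ATP and for keeping up aspartate and pyrimidine synthesis, and cytochrome c released from it starts the caspase cascade.

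Between 22503 and 22941 probe sets per array reached a log2 of 4, which served as the level above background. T-cell markers were present, with CD3D between 13.87 and 14.36, while CD2 was not above background. Of 19 markers of B cells, myeloid, erythroid and stromal cells, 14 were on the array and 4 passed the filter: CD79A, CD79B, COL1A1 and VIM. Over all arrays CD79A lay between 9.8 and 11.8, CD79B between 6.6 and 7.4 and COL1A1 between 5.6 and 6.5, and VIM reached 14.5. Markers of B cells and stromal cells were thus not all absent. Among those that did not pass, MS4A1, PAX5, CD14 and MPO lay at background. At 24 h 6 of 11 tested T-cell markers rose and 2 fell, the largest being CD7 (0.66), CD4 (0.65) and CD3E (0.59), against CD5 (-0.29; adjusted p = 0.0489, which became 0.0514 once experiments were paired) and LCK (-0.24). CD79A (1.55) and VIM (0.34) rose among the other markers. Over all genes tested 23.9% rose and 28.1% fell at 24 h. Scaled to poly-A spike RNAs, described below, 0 T-cell markers were higher and 3 lower, and of the other markers 1 was higher and 1 lower. On that scale 9.44% of all genes were higher and 47.6% lower. The part of these markers in the results was not tested. Scan batches implied by array names place the dexamethasone and the ethanol arrays of 6 h in separate batches, so batch and treatment cannot be told apart at 6 h and in any comparison of the times. All 24 h arrays share 1 batch.

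The proximal promoters of 5 members are given here because these genes carry the findings. CYCS and ATP5MC1 had large falls, NDUFA9 and ATP5ME fell and hold matches to motifs of known regulators of respiratory genes, and ATP5F1E rose. Each line is the 250 bases before the annotated start, 5′ to 3′ on the gene's strand, from RefSeq on GRCh38.p14, with motif matches in capitals. CYCS lies at chr7:25125261-25125510 (minus strand), ATP5MC1 at chr17:48892537-48892786 (plus), NDUFA9 at chr12:4648864-4649113 (plus), ATP5ME at chr4:674277-674526 (minus) and ATP5F1E at chr20:59032336-59032585 (minus).
CYCS: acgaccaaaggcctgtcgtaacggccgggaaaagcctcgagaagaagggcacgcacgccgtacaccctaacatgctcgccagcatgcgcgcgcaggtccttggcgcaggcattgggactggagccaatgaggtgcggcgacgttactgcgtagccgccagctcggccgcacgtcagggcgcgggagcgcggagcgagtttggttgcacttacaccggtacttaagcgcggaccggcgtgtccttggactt
ATP5MC1: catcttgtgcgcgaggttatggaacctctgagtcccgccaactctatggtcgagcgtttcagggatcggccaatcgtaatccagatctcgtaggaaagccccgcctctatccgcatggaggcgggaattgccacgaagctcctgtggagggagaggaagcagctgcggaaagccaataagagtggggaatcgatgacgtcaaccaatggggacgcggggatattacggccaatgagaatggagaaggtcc
NDUFA9: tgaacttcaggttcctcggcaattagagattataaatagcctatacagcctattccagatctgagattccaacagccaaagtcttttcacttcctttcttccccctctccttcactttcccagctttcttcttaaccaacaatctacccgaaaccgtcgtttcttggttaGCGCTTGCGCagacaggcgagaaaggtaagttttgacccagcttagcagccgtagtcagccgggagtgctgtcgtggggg
ATP5ME: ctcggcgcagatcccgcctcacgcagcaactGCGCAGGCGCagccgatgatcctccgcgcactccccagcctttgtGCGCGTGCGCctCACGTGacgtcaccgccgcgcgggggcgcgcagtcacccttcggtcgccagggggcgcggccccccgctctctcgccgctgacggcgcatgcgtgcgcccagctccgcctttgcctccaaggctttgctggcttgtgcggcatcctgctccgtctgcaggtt
ATP5F1E: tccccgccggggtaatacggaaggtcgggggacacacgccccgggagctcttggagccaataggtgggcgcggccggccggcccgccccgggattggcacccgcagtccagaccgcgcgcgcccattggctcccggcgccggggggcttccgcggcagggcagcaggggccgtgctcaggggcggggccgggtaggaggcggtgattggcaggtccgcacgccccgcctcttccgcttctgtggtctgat
In capitals, NDUFA9 has 1 NRF1 match, at -80 from the start, and ATP5ME has 2 NRF1 matches, at -219 and -174, and 1 E-box, at -162. The 250 bases printed for CYCS, ATP5MC1 and ATP5F1E hold no exact match to the 4 motifs searched. A site whose letters differ from the motif would be missed, so these promoters may still hold such sites. Past the start, in the 50 further bases searched but not printed, ATP5MC1 holds an E-box at position 5, NDUFA9 a YY1 match at 11, and ATP5ME an ETS match at 4 and a YY1 match at 27.

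The motifs were GCGCA and GCGC with any base between them (NRF1), CCGGAAG (ETS factors such as GABPA), CACGTG (an E-box bound by MYC) and AAGATGG (YY1), each on both strands of 300 bases, which run 50 bases past the start. Of 79 members 67 had a promoter entry. NRF1 matches were found in 16 of 67 members (23.9%) and in 8.58% of 15843 promoters of protein-coding genes. ETS matches were in 18 of 67 (26.9%) against 14.2% of all, YY1 matches in 15 (22.4%) against 6.40%, and E-boxes in 7 (10.4%) against 8.88%. Among members that fell at 24 h, 4 of 19 held an NRF1 match, while 11 of 41 members that did not pass the test did, and 0 of 3 that rose. These are counts of letters in windows, with no test.

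At 6 h the subunits did not pass the test in either direction. Of 73 members above the filter 0 were higher and 0 were lower with dexamethasone (limma, Benjamini-Hochberg over 23265 probe sets, adjusted p under 0.05), and 3 passed an unadjusted p of 0.05. Among all 9947 genes tested, 2.72% were higher and 3.77% lower. The members' median difference was 0.01 on the log2 scale, within a range of -0.24 to 0.26. Members past the unadjusted threshold were NDUFB11 (0.21), NDUFS4 (-0.24) and CYCS (-0.17). NDUFS4, an accessory subunit of the NADH-oxidising arm of complex I, passed when the experiment was a term of the fit (adjusted p = 0.045).

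By 24 h the chain had changed gene by gene and mostly downward. Of 73 members 23 fell and 6 rose, with a median of -0.10, against a median of -0.02 over all genes. Over all 9947 genes 28.1% fell and 23.9% rose, beside 31.5% and 8.22% of the members, so the share of members that fell was near the background. Changes were small, from -1.33 to 0.29. The dexamethasone and ethanol arrays did not overlap for 33 lower and 17 higher members of 73, where 35.3% and 30.5% of all genes did not.

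**Figure D1:**
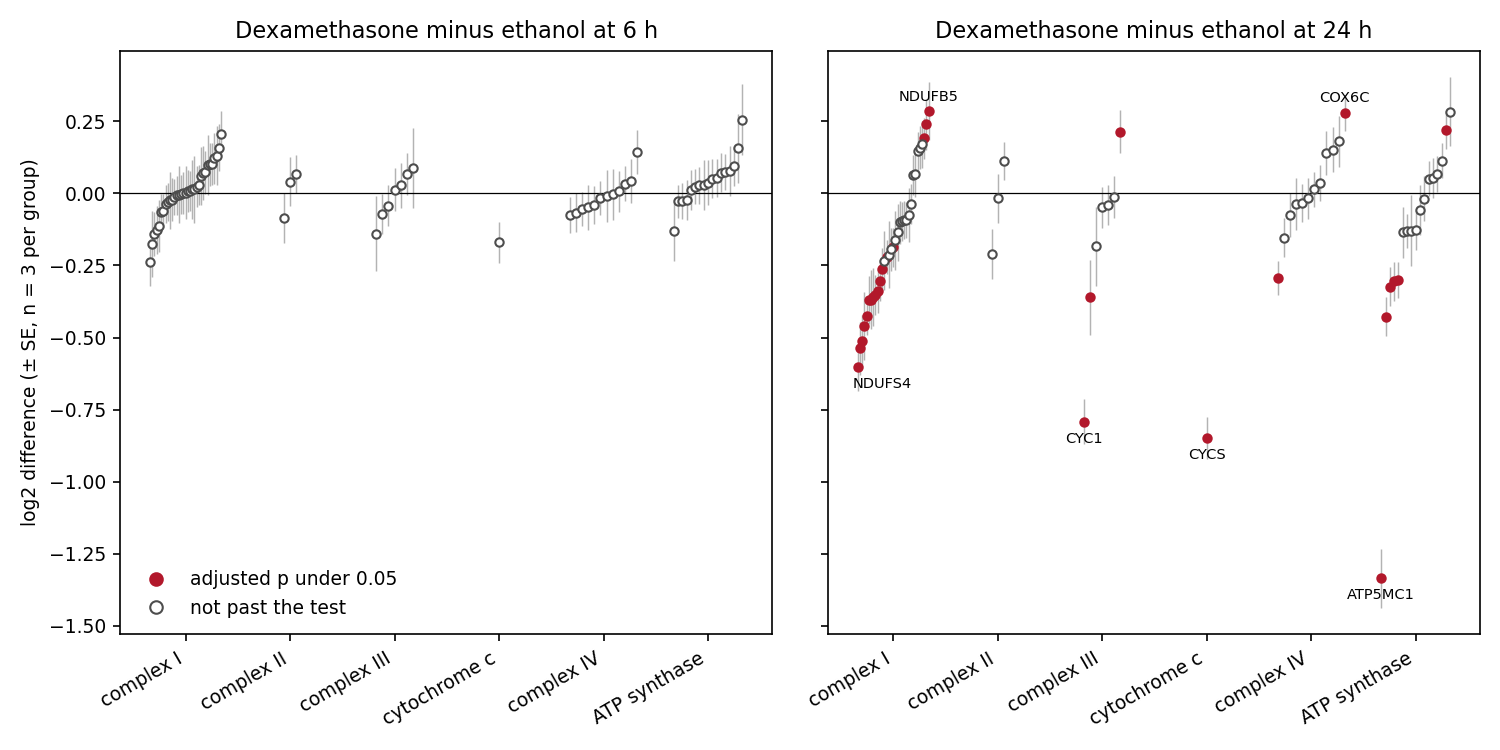
Log2 difference, dexamethasone minus ethanol, for the 73 tested members by complex at 6 h (left) and 24 h (right), each point with its SE from limma (n = 3 per group). Filled points passed an adjusted p of 0.05; at 6 h none did, and at 24 h ATP5MC1, CYCS and CYC1 lie lowest.

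The electron carrier between complexes III and IV and the complex III subunit that hands it electrons both fell. CYCS, cytochrome c, measured 13.61, 13.80 and 13.69 in dexamethasone cells at 24 h and 14.52, 14.58 and 14.54 in ethanol cells. CYC1, the cytochrome c1 subunit of complex III, measured 10.86, 11.12 and 10.92 with dexamethasone and 11.75, 11.75 and 11.78 with ethanol. Every dexamethasone array lay below every ethanol array for both genes. CYCS fell by 0.85 ± 0.07 (SE, n = 3; adjusted p = 4.14e-06 by limma), a 1.80-fold lower level. Its other 2 probe sets also fell, by 1.20 and 1.02. CYC1 fell by 0.79 ± 0.08 (adjusted p = 1.32e-05), a 1.73-fold lower level. At 6 h CYCS measured 14.41, 14.43 and 14.28 with dexamethasone and 14.56, 14.53 and 14.54 with ethanol, and CYC1 differed by 0.03.

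The c-ring of ATP synthase, through which protons pass, is built from 1 protein made by 3 genes that differ in their targeting peptides. Whether their changes differ from one another was not tested. ATP5MC1 measured 9.81, 10.13 and 9.74 in dexamethasone cells at 24 h and 11.13, 11.23 and 11.32 in ethanol cells, without overlap. It fell by 1.33 ± 0.10 (SE, n = 3; adjusted p = 2.27e-06 by limma), a 2.52-fold lower level and the largest change among the 73 members. ATP5MC3 measured 13.48, 13.49 and 13.38 with dexamethasone and 13.77, 13.73 and 13.76 with ethanol, again without overlap, and fell by 0.30 ± 0.06 (adjusted p = 0.00234). ATP5MC2 measured 12.59, 12.49 and 12.67 with dexamethasone and 12.65, 12.68 and 12.83 with ethanol. Those ranges overlap, and the difference of -0.14 ± 0.09 did not pass the test (adjusted p = 0.232). ATP5MC2 was lower with dexamethasone in every pair of same-numbered arrays, and with experiments paired it did not pass either (adjusted p = 0.0962 by limma).

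**Figure D2:**
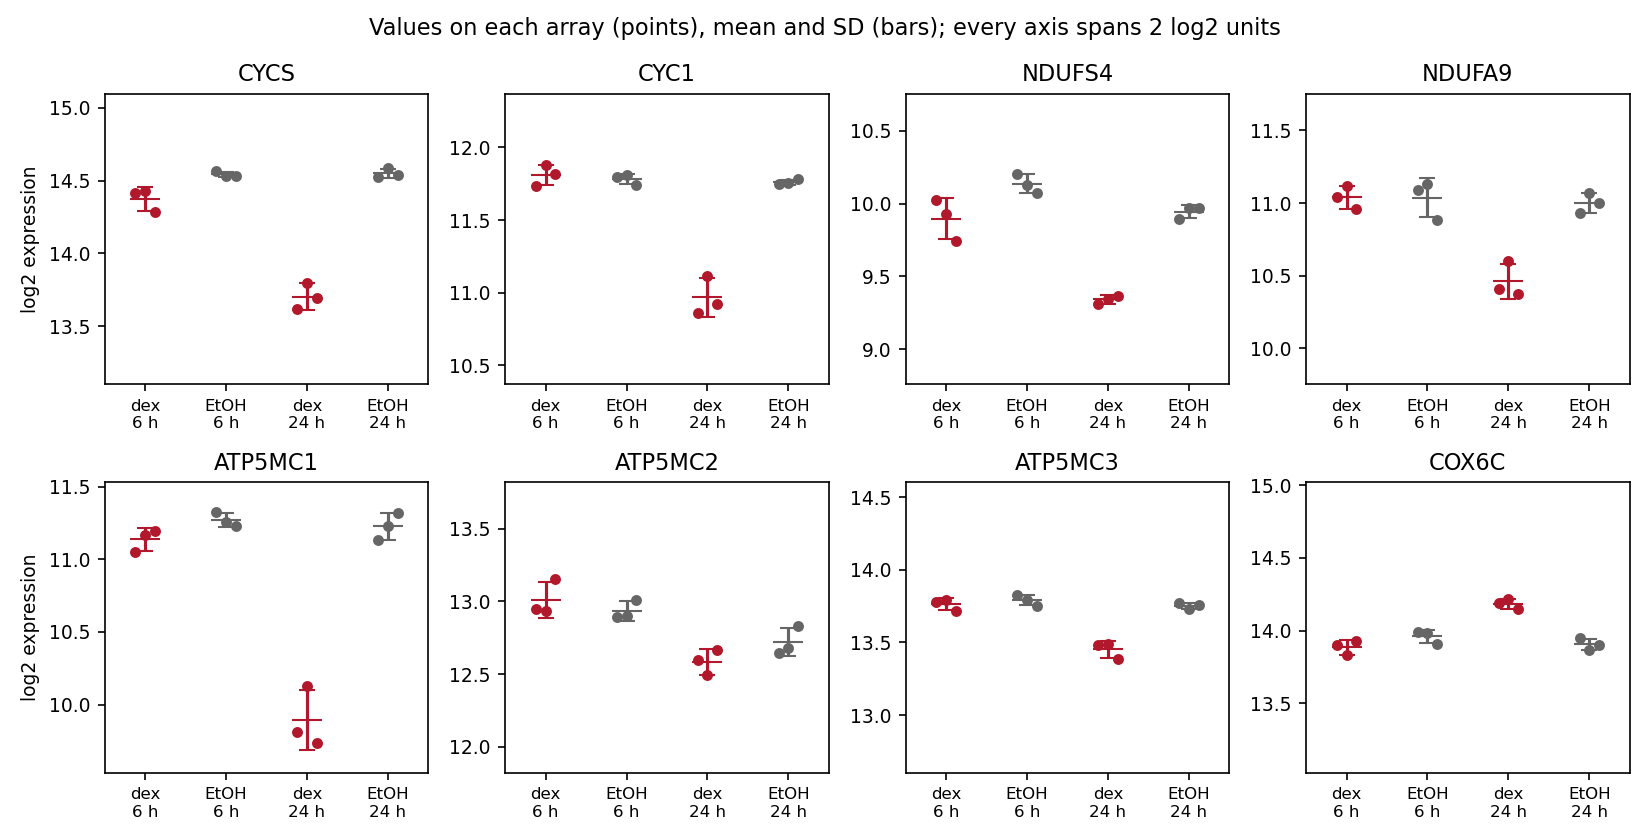
Log2 expression on each array for 8 members, with dexamethasone (dex) left of ethanol (EtOH) at 6 h and at 24 h; points are arrays, bars the mean and SD (n = 3), and every axis spans 2 log2 units. ATP5MC1 falls furthest at 24 h, ATP5MC2 overlaps its ethanol arrays, and COX6C is the member shown that lies above them.

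Of 17 ATP synthase genes tested, 5 fell (29.4%), ATP5MC1 and ATP5MC3 among them, and 1 rose (5.88%), so the share that fell was near the 28.1% of all genes. ATP5ME and ATP5MK, small membrane subunits at the dimer interface, fell by 0.43 ± 0.07 (adjusted p = 0.000402) and 0.32 ± 0.07 (adjusted p = 0.00234). ATP5F1B, the catalytic beta subunit, fell by 0.31. ATP5F1E, the epsilon subunit of the central stalk, measured 14.57, 14.51 and 14.48 with dexamethasone and 14.31, 14.27 and 14.32 with ethanol, and rose by 0.22 ± 0.07 (adjusted p = 0.0193). None of 4 peripheral stalk genes passed in the unpaired fit. With experiments paired, ATP5PD passed (0.28, adjusted p = 0.00395, against 0.0735 unpaired), higher in 3 of 3 pairs and without overlap. ATP5MF had no probe set above the filter.

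In complex I 14 of 33 tested members fell (42.4%) and 3 rose (9.09%), with a median of -0.19, beside 28.1% and 23.9% of all genes. Whether complex I differs from the other complexes was not tested. NDUFS4 measured 9.31, 9.35 and 9.37 in dexamethasone cells and 9.89, 9.97 and 9.97 in ethanol cells, without overlap. It fell by 0.60 ± 0.08 (adjusted p = 0.000121). NDUFA9, which helps to hold the arms of the complex together, fell by 0.54 ± 0.09 (adjusted p = 0.000655), and NDUFV2, an iron-sulfur subunit of the NADH-binding module, by 0.51 ± 0.09 (adjusted p = 0.000785). Of 5 core subunits of the peripheral arm 2 fell (NDUFV2 and NDUFS3), and NDUFV1, NDUFS1 and NDUFS7 did not pass, at -0.23, -0.21 and -0.16. In the paired fit NDUFV1 (adjusted p = 0.0313) and NDUFS1 (adjusted p = 0.0292) did pass, as did NDUFA6, an accessory subunit (-0.19, adjusted p = 0.0322, against 0.0505 unpaired). In the membrane arm 8 of 19 accessory subunits fell, among them NDUFAB1, the mitochondrial acyl carrier protein (-0.43), and 2 rose. NDUFB5 measured 11.74, 11.75 and 11.73 with dexamethasone and 11.45, 11.52 and 11.39 with ethanol. It rose by 0.29 ± 0.10 (adjusted p = 0.0361), NDUFB1 by 0.24 ± 0.09 (adjusted p = 0.0476) and NDUFA2 by 0.19 ± 0.07 (adjusted p = 0.0473).

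In complex II 0 of 3 tested genes passed (limma), and 1 passed an unadjusted p of 0.05. By the adjusted test 28.1% of all genes fell and 23.9% rose. SDHA, the flavoprotein of complex II, differed by -0.02 ± 0.08 (adjusted p = 0.885), and SDHC, a membrane anchor, by 0.11 ± 0.07 (adjusted p = 0.183). SDHD, the other anchor, measured 11.84, 12.03 and 11.70 with dexamethasone and 12.07, 12.11 and 12.01 with ethanol, which overlap. Its difference of -0.21 ± 0.09 did not pass (adjusted p = 0.0706), and did with the experiment as a term (adjusted p = 0.0361). In complex III, besides CYC1, UQCRC2, a core protein, fell by 0.36 ± 0.13 (adjusted p = 0.042) and UQCRB rose by 0.21 ± 0.07 (adjusted p = 0.0342), of 7 genes tested. Thus 28.6% of complex III genes fell and 14.3% rose, and the share that fell was near that of all genes. Complex IV had a median of 0.00, with 1 fall and 1 rise among 12 (8.33% each), both below the shares of all genes. COX5A fell by 0.29 ± 0.06 (adjusted p = 0.002). COX6C measured 14.19, 14.21 and 14.15 with dexamethasone and 13.95, 13.87 and 13.90 with ethanol, without overlap, and rose by 0.28 ± 0.06 (adjusted p = 0.0039). Pairing the experiments brought 3 more genes of complexes III and IV past the test: UQCRC1 (-0.18, adjusted p = 0.0488), COX7B (-0.15, adjusted p = 0.0455) and COX7A2L (0.18, adjusted p = 0.0449). Tissue isoforms of complex IV were low throughout: COX6A2, COX6B2, COX7A1, COX7B2 and COX8C never passed 2.75, and COX4I2 lay between 4.30 and 4.68.

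Several genes had more than 1 probe set. Of 35 members with several tested probe sets, 0 had calls in both directions at 24 h, and 5 had every tested probe set called in 1 direction. In 3 members a probe set other than the one used passed where the one used did not: NDUFB2 (-0.42), UQCR11 (-0.56) and ATP5MG (0.29). Probe sets used for 5 members, those of ATP5F1C, ATP5ME, ATP5MG, COX7C and SDHA, carry a suffix that marks probes shared with other transcripts, so their values are uncertain. Those of 37 further members end in _s_at or _a_at, which can also mark probes that match several transcripts. ATP5MC1, with the largest fall, rests on such a probe set alone.

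The response at 24 h differed from that at 6 h for 13 members in the downward and 1 in the upward direction of 73, against 14.8% and 12.3% of all genes. The largest differences were ATP5MC1 (-1.20 ± 0.15), CYC1 (-0.82 ± 0.11), CYCS (-0.68 ± 0.10), NDUFA9 (-0.54 ± 0.13) and ATP5ME (-0.48 ± 0.10), and COX6C was the rise (0.36 ± 0.09). All of these have adjusted p-values of 0.0158 or less by limma. Paired, 3 further members passed downward: ATP5F1B (-0.28, adjusted p = 0.0396), NDUFV1 (-0.36, adjusted p = 0.035) and NDUFV3 (-0.47, adjusted p = 0.0125). Those comparisons use the 6 h groups, whose arrays come from separate batches. Leaving out any of 7 arrays took the downward count to 8: 1 dexamethasone 6 h array (experiment 1), 1 ethanol 6 h array (experiment 3), all 3 ethanol arrays of 24 h and dexamethasone arrays 1 and 3 of 24 h.

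Whether the rises passed the test, and their sign, depended on the scaling. Poly-A spike RNAs, added to each sample before labelling, read 0.48 higher at 6 h and 0.34 higher at 24 h in dexamethasone than in ethanol arrays on the deposited scale, and hybridization controls 0.34 and 0.38 higher. Scaled to the spikes, every gene shifted down by those amounts. At 24 h 51 of 73 members were then lower and 0 higher, where 47.6% of all genes were lower and 9.44% higher. At 6 h 70 of 73 members were lower and 0 higher, where 69.8% of genes were lower and 1.09% higher. For the difference between the times 2 of 73 members were lower and 0 higher, where 5.49% and 10% of genes were. With hybridization controls 28 members were lower and 0 higher at 24 h, with median centring 25 and 1, and with cyclic loess 18 and 15. Shares over all genes under these scalings are not given here, so these counts have no background to be read against. All 6 rises at 24 h were below 0 on both control scales, which need not be a fall past the test. On the spike scale ATP5F1E lay at -0.13 ± 0.15 (SE; adjusted p = 0.485 by limma). NDUFA2 lay at -0.15 ± 0.14 (adjusted p = 0.376), so neither passed as lower. The falls of ATP5MC1, CYCS and CYC1 stayed past the test on the spike scale. That scale lowers every 24 h difference by 0.34, so it could only enlarge a fall and is no check on the sign. Relative to the mean over all arrays, the spikes at 24 h read -0.40, -0.03 and 0.04 on ethanol arrays. They read 0.19, 0.27 and 0.19 on dexamethasone arrays. The spike shift at 24 h thus leans on 1 ethanol array (experiment 1), and the signs of the rises on that scale were not checked without it. Leaving out any 1 of the 6 arrays of 24 h took the count of rises to between 1 and 3. The calls of NDUFA2, NDUFB1, NDUFB5, UQCRB, ATP5F1E and UQCRC2 were each lost without some single array, with adjusted p-values of up to 0.153, 0.127, 0.105, 0.12, 0.0663 and 0.118 in that order (limma).

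**Figure D3:**
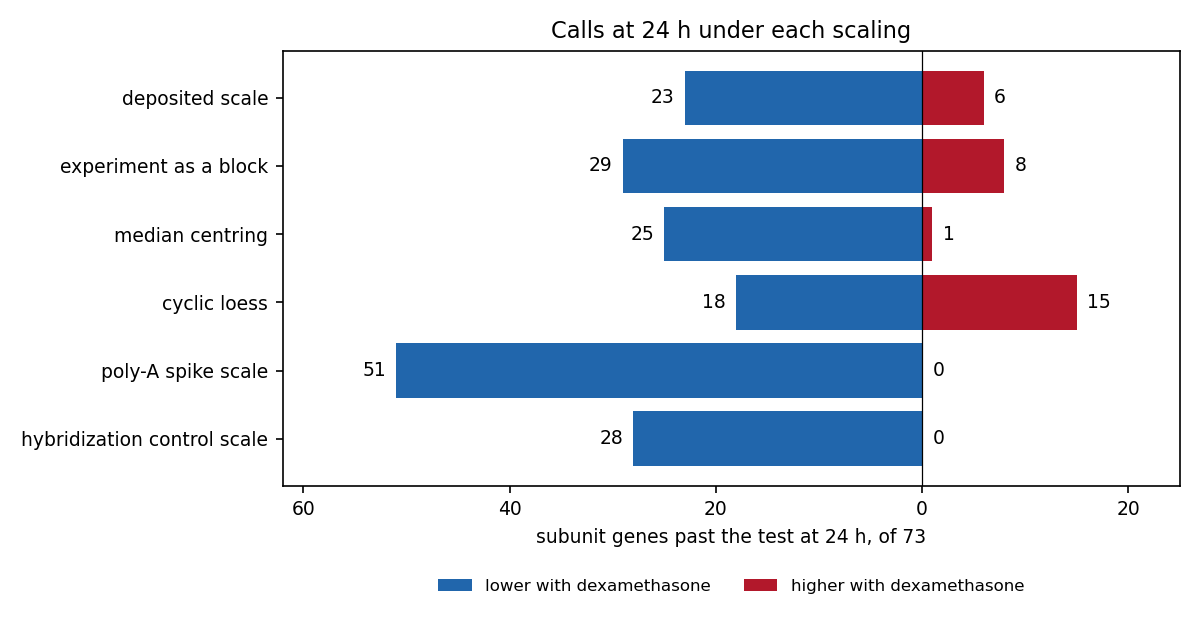
Number of the 73 subunit genes lower (left of 0) or higher (right of 0) with dexamethasone at 24 h, past an adjusted p of 0.05, under 6 settings. The count lower runs between 18 and 51 and the count higher between 0 and 15.

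Other genes of the pathway were read from lists of assembly, supply and regulation. Of 48 tested assembly factors 30 fell and 2 rose at 24 h, with a median of -0.42, beside 28.1% of all genes that fell. NDUFAF2, a complex I assembly factor, fell by 1.78, SCO2, a copper chaperone of complex IV, by 1.55, and COA7 by 1.39, while COA5 (0.38) and OXA1L (0.36), the inner membrane insertase, rose. In ubiquinone synthesis 7 of 13 genes fell and 0 rose, among them PDSS1 (-1.32), which builds the side chain, COQ3 (-1.21) and COQ7 (-0.69). DHODH, the pyrimidine enzyme that reduces ubiquinone, fell by 2.13, ETFA fell by 0.17, SQOR rose by 1.48 and ETFB by 0.45. Of 8 carriers and channels VDAC1 (-1.15), VDAC2 (-0.52) and SLC25A4 (-0.36) fell and SLC25A24 (0.74) rose. Among 12 genes of mitochondrial transcription 7 fell and 0 rose, including the coactivators PPARGC1B (-2.08) and PPRC1 (-1.73) and the RNA polymerase POLRMT (-1.11). Of 7 tested genes encoded in mitochondrial DNA 0 passed the test in either direction (limma), nor did any at an unadjusted p of 0.05, from -0.23 for ND6 to 0.13 for COX2. Signals of ND2, ND4, COX1, COX2 and ATP6 lay between 15.23 and 16.22. Whether probe sets that bright can still show a change was not tested. On the poly-A spike scale 41 assembly factors were lower and 0 higher, 7 ubiquinone synthesis genes lower and 0 higher, and 11 mitochondrial transcription genes lower and 0 higher. On that scale 6 carriers were lower and 1 higher, 3 other feeders of ubiquinone lower and 1 higher, and 1 mitochondrially encoded gene lower and 0 higher, beside 47.6% and 9.44% of all genes.

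**Figure D4:**
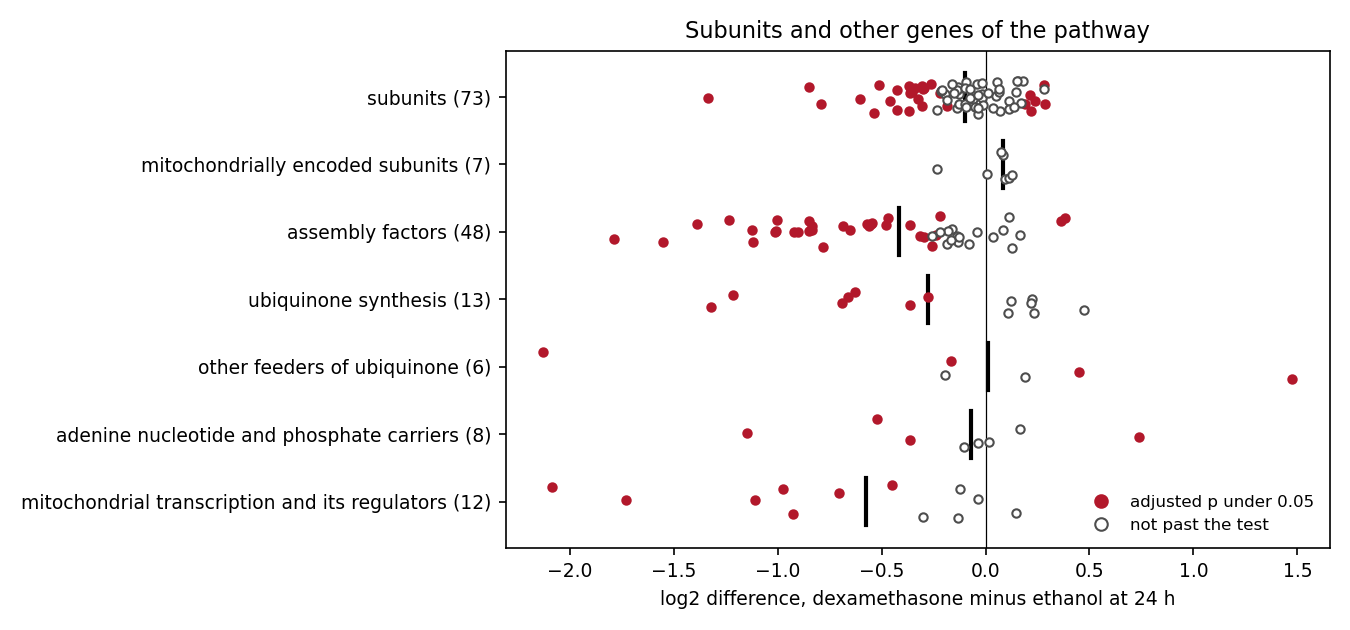
Log2 difference, dexamethasone minus ethanol at 24 h, for the tested genes of each list, with the number of genes in brackets; filled points passed an adjusted p of 0.05 and black bars are medians. Assembly factors (median -0.42) and mitochondrial transcription (median -0.58) lie below the subunits (median -0.10).

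At 6 h a few of these genes were lower on the dexamethasone arrays: PET117 (-0.46), NDUFAF4 (-0.44), COQ7 (-0.48), COQ10B (-0.38), DHODH (-1.03), VDAC2 (-0.44) and PPARGC1B (-0.77). The dexamethasone and ethanol arrays of 6 h lie in separate scan batches, so batch and treatment cannot be told apart for these differences. In the paired fit 8 assembly factors were lower at 6 h and 1 was higher, against 2 and 0 unpaired, and 2 genes of mitochondrial transcription were lower, against 1. Over all genes 3.77% were lower and 2.72% higher at 6 h unpaired. The share over all genes in the paired fit is not given here. At 24 h 1 gene of ubiquinone synthesis was higher when paired, against 0. Fewer cells and less RNA per cell cannot be told apart in these bulk arrays.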

How the data were processed

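RNA from 12 cultures was measured on 12 arrays. The authors deposited log2 expression values per probe set, which the submitters' processing notes credit to GCRMA and R 2.6, without its settings. GCRMA sets arrays to a common distribution, so a change shared by most genes is largely removed before deposit. Symbols came from the platform annotation, updated to GRCh38.p14 RefSeq names. The members, gene lists, motifs and tests were chosen with earlier results of these data known. Groups were compared with limma 3.58.1 in R 4.3.3 on 12 arrays in 4 groups of 3, over 23265 probe sets that reached a log2 of 4 on 3 or more arrays, with Benjamini-Hochberg adjustment and an adjusted p under 0.05. Control probe sets (62) were left out. The signal over background and 3 arrays per group limit the precision. On simulated data for the 24 h comparison, over 23265 probe sets, 31% of changes of 0.5 and 77% of changes of 1 were recovered. Only 100 probe sets were changed by each amount there, while in the data 5304 were called higher and 5693 lower. With few true changes the adjusted threshold is stricter, so these shares do not give the power of the real comparison. Same-numbered dexamethasone and ethanol arrays deviated together (r between 0.24 and 0.63), so the experiments pair the samples; the paired fit is given beside results whose call it changes. Named genes were the 3 largest rises and falls per time and complex, CYCS, CYC1, the SDH and c-ring genes, the tissue isoforms, the 5 largest differences between times in each direction and the 3 largest changes in each direction per list; other members named were chosen after their values were seen. Alternatives were the experiment as a block, other filters, 4 scalings, a variance trend, averaged probe sets, single times and leaving out each array.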

Additional observations from a re-analysis of the deposited data

Results flagged for a closer look

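For 10 named members the response at 24 h differed from the response at 6 h by the interaction contrast of the fit (limma). These were ATP5MC1 (-1.20), CYC1 (-0.82), CYCS (-0.68), NDUFA9 (-0.54), ATP5ME (-0.48), NDUFV2 (-0.40), ATP5MK (-0.39), NDUFS4 (-0.36), ATP5MC3 (-0.28) and COX6C (0.36). The adjusted p of ATP5MC3 was 0.0455 and lay above 0.05 without any 1 of 11 arrays. On the poly-A spike scale ATP5MC1 (adjusted p = 0.0025) and CYC1 (adjusted p = 0.0315) remained past the threshold.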

How the results depend on the processing

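The experiment as a replicate block gave 1 member lower at 6 h, and 8 higher and 29 lower at 24 h. On the poly-A spike scale 70 were lower at 6 h, 0 higher and 51 lower at 24 h, and 0 higher and 2 lower for the difference between times. The block with the spike scale, an alternative chosen after seeing the data, gave 71, 0 and 53, and 0 and 3. Hybridization controls gave 0 higher at 24 h, and 0 higher and 1 lower for the difference. Median centring gave 1 higher at 24 h and 0 for the difference, cyclic loess 15 higher at 24 h, and 2 higher and 7 lower for the difference, and the variance trend 10 higher at 24 h. Leaving out 1 array gave 1 to 6 higher and 20 to 24 lower at 24 h, and 1 higher and 8 to 12 lower for the difference. Shares over all genes are given above only for the deposited scale and for the spike scale without the block. Signs reversed at 6 h on the spike scale, with or without the block, for CYC1 (-0.45), SDHA (-0.44), SDHC (-0.41) and ATP5MC2 (-0.40). At 24 h they reversed on the spike scale (with or without the block) and with hybridization controls for ATP5F1E (-0.13 and -0.16), COX6C (-0.065 and -0.10), UQCRB (-0.13 and -0.16), NDUFB5 (-0.059 and -0.092), NDUFB1 (-0.11 and -0.14), NDUFA2 (-0.15 and -0.19) and VIM (-0.0031 and -0.036), and with hybridization controls alone for OXA1L (-0.014). A reversed sign at 24 h need not be a fall past the test. On the spike scale ATP5F1E (adjusted p = 0.485) and NDUFA2 (adjusted p = 0.376) did not pass (limma). Subtracting the control offset produces these shifts. Why the controls read higher was not tested. Calls of UQCRC2, NDUFA2, NDUFB1, NDUFB5, UQCRB, ATP5F1E, ETFA, CD5, CD4, OXA1L and LCK at 24 h, and of COQ10B, COQ7, PET117 and PPARGC1B at 6 h, were lost without some single arrays. Low signal limits the 6 members below the filter.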
